A study of Mus musculus with 12 samples.

Results

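Expression of 9 inflammasome genes was examined in RAW 264.7 cells transfected with oligonucleotides meant to raise or lower miR-223 activity. The genes were the sensors Nlrp3, Aim2 and Nlrc4, the adaptor Pycard, the caspases Casp1 and Casp4, the pore-forming Gsdmd, and the cytokines Il1b and Il18. They were chosen by symbol, as the array's transcript clusters whose only gene symbol was one of the 9. This gave 10 clusters, because Gsdmd had 2. All 9 genes passed the level filter that left 14611 of 22180 genes to be tested. RAW 264.7 is a mouse macrophage line that grows attached to the dish and was transformed with the Abelson murine leukaemia virus. All cells were grown to confluence and were taken after 48 h of transfection. The control group received a scramble sequence irrelevant to miR-223, the mimic group pre-miR-223 to raise its activity, and the inhibitor group anti-miR-223 to lower it. Each group had 4 arrays titled as biological replicates, 12 in all. All groups are therefore transfected cells of 1 line, no untransfected cells were analysed here, and the labels name no inflammatory stimulus. Where separate cultures are not stated, p-values measure the spread between these samples only.

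An inflammasome is a protein platform that switches on caspase-1 when a cell senses infection or damage. NLRP3 answers to many kinds of membrane damage, AIM2 to DNA in the cytosol, and NLRC4 to bacterial proteins passed on by NAIP receptors. Through ASC, the adaptor encoded by Pycard, NLRP3 and AIM2 recruit caspase-1. Caspase-1 matures interleukin-1β and interleukin-18 and cuts gasdermin D into a form that opens pores in the cell membrane. Caspase-11, encoded in the mouse by Casp4, binds lipopolysaccharide in the cytosol and cuts gasdermin D as well. In macrophages the transcripts of Nlrp3 and Il1b are low at rest and are induced through NF-kB, the step known as priming. RAW 264.7 cells are known to lack ASC protein, so in this line the transcripts can be read but not the full pathway.

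MiR-223 is a microRNA abundant in myeloid cells, and Nlrp3 is a reported direct target of its 3p arm. A microRNA pairs with its targets mainly through the seed, bases 2 to 8, so the mature arms are shown with the seed in capitals. The sequences are from RefSeq (GRCm38.p6), and both arms lie on the plus strand of the X chromosome, at chrX:96242884-96242905 and chrX:96242842-96242864.
mmu-miR-223-3p: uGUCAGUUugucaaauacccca
mmu-miR-223-5p: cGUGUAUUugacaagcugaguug
The letters complementary to the seeds are AACUGAC for the 3p arm and AAUACAC for the 5p arm. Among 1738 mature mouse microRNAs in the table, no other had either seed at bases 2 to 8. Delivery of the mimic and the inhibitor was not checked, and Mir223 was the sole symbol of no cluster.

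Values were log2 signals, already normalised between arrays by the authors, with array medians over all clusters between 2.21 and 2.31. Over the tested genes alone the array medians were less level, from 3.70 in pre-miR-223 replicate 4 to 4.07 in anti-miR-223 replicate 4. They were 3.82 to 3.93 in scramble and 3.70 to 3.88 with pre-miR-223. All 12 macrophage markers lay above the lowest level tested (log2 2.01), and their mean was between 7.67 and 8.34 on every array. The means of the fibroblast, epithelial, lymphoid, and neutrophil or dendritic cell markers lay between 1.83 and 2.31. Of those listed, 3 of 6, 3 of 7, 3 of 8 and 4 of 9, in that order, were also above the lowest level tested. The epithelial marker Krt8 was at 3.48 in scramble, above the macrophage marker Cd86 at 2.09. Anti-miR-223 replicate 4 stood apart: its median correlation with the other arrays, across genes, was 0.967 against 0.988 to 0.992, and it held the highest value of the 12 arrays for 34.1% of all tested genes. It also had the highest mean of the macrophage markers, 8.34. Results that move without it are given both ways. In bulk samples, fewer cells of a type and less RNA per cell cannot be told apart.

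Nlrp3, the sensor reported as a miR-223 target, differed little between the groups. Its log2 signal was 5.83, 5.79, 5.51 and 5.62 in scramble replicates 1 to 4. It was 5.69, 5.81, 5.33 and 5.44 with pre-miR-223, and 5.32, 5.53, 5.75 and 5.91 with anti-miR-223. The 3 groups overlapped, and the lowest and the highest of the 12 values were both anti-miR-223 arrays. The means were in the order scramble (5.69 ± 0.15, SD, n = 4), anti-miR-223 (5.63 ± 0.26) and pre-miR-223 (5.57 ± 0.22), and no neighbours in this order differed beyond the spread between arrays. Pre-miR-223 against scramble gave a log2 difference of -0.12 (95% CI -0.43 to 0.19), a ratio of 0.919 (0.740 to 1.14), with an adjusted p of 0.941 by limma. It was -0.04 with each array centred on its median and -0.01 with cyclic loess. The interval excluded a fall of 1.5-fold or more. Anti-miR-223 against scramble gave -0.06 (-0.37 to 0.25; adjusted p = 1.0 by limma), and the mimic against the inhibitor gave -0.06 (-0.38 to 0.25; adjusted p = 0.966 by limma). The latter turned to 0.03 without anti-miR-223 replicate 4 and to 0.01 without pre-miR-223 replicate 3, and took values from 0.01 to 0.03 with centring, repeated quantile normalisation or cyclic loess. The 2-sided exact permutation test over the 70 splits of 4 against 4 arrays gave p = 0.400 for the mimic against scramble and 0.714 for each of the other comparisons (0.714 for all 3 after adjustment over them). The smallest p that this test can give is 0.0286.

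The difference for the mimic against scramble ranged from -0.20 without pre-miR-223 replicate 2 to -0.04 without pre-miR-223 replicate 3. Leaving out scramble replicate 1 or pre-miR-223 replicate 4 gave -0.08 each. For the inhibitor it ranged from -0.15 without anti-miR-223 replicate 4 to 0.04 without anti-miR-223 replicate 1, the only omission of 12 that turned its sign.

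**Figure D1:**
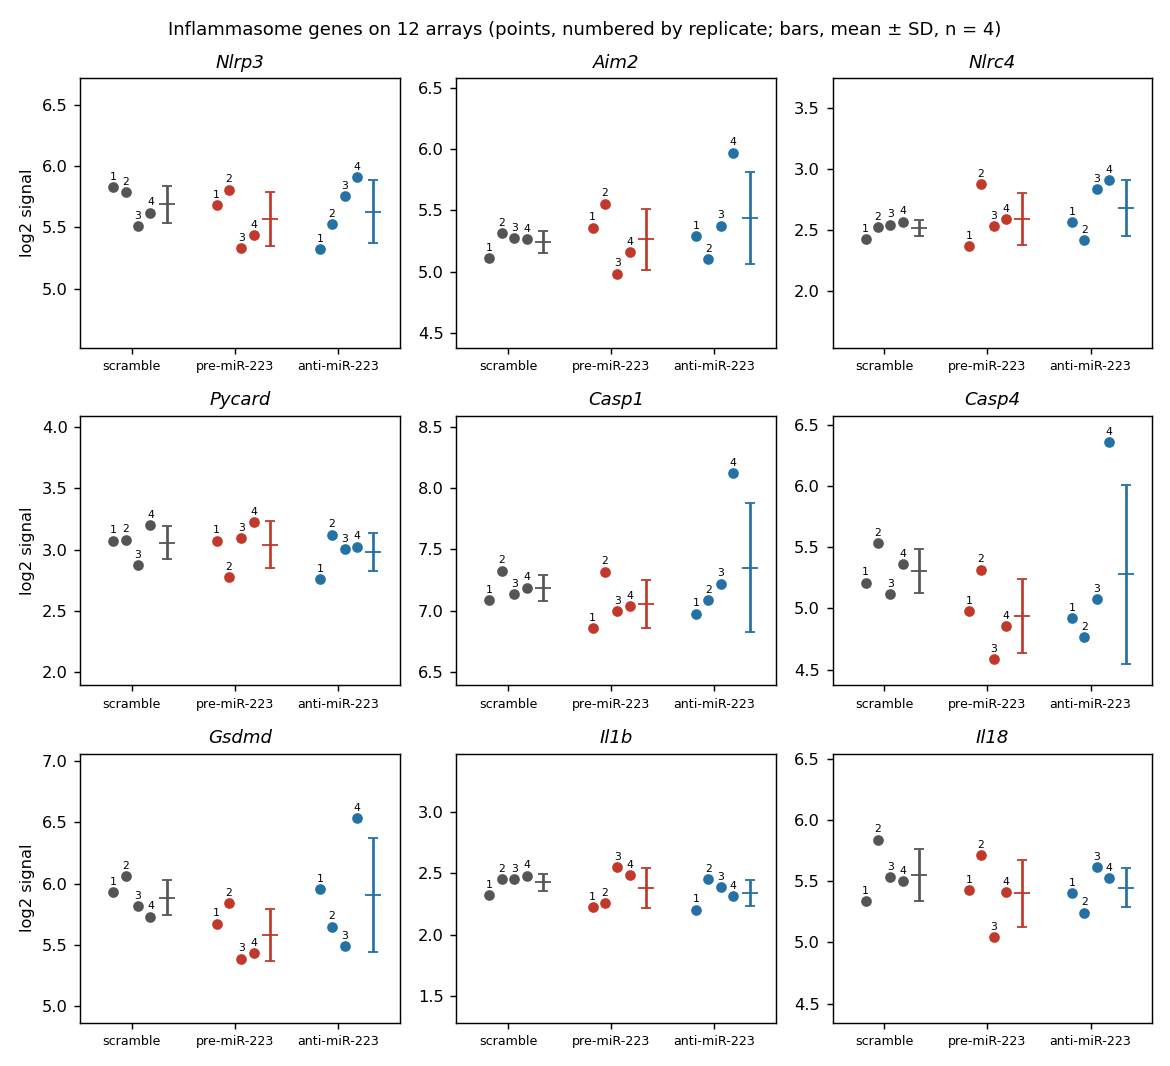
Log2 signal (y axis, 2.2 units high in every panel) of each of the 9 genes on the 12 arrays, by group (x axis); points are arrays numbered by replicate, and bars to their right give the mean and SD. The groups overlap in every panel, and anti-miR-223 replicate 4 lies highest for Nlrp3, Aim2, Nlrc4, Casp1, Casp4 and Gsdmd.

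The other sensors did not pass the test either. Aim2, the sensor of cytosolic DNA, was at 5.11, 5.32, 5.27 and 5.26 in scramble, at 5.36, 5.56, 4.98 and 5.16 with pre-miR-223, and at 5.29, 5.10, 5.38 and 5.97 with anti-miR-223. The scramble arrays lay close together, while the mimic arrays lay on both sides of them. The log2 difference was 0.02 (95% CI -0.34 to 0.39) for the mimic and 0.19 (-0.17 to 0.56) for the inhibitor. The latter was 0.02 (-0.26 to 0.29) without anti-miR-223 replicate 4.

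Nlrc4, the sensor of bacterial flagellin and secretion system proteins, was dim, near the lowest level tested. It was at 2.43, 2.53, 2.55 and 2.57 in scramble, at 2.37, 2.88, 2.53 and 2.59 with pre-miR-223, and at 2.57, 2.42, 2.83 and 2.91 with anti-miR-223. Each oligonucleotide had arrays below and above all 4 scramble arrays. The differences from scramble were 0.08 (95% CI -0.21 to 0.36) for the mimic and 0.16 (-0.12 to 0.44) for the inhibitor, or 0.09 for the latter without anti-miR-223 replicate 4. The mimic's difference was -0.02 without pre-miR-223 replicate 2.

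Pycard, which encodes the adaptor ASC, had a signal above the lowest level tested in a line known to lack the protein. Such a signal does not by itself show that the transcript is present, and no sample that makes ASC was analysed here. Its values were 3.08, 3.08, 2.87 and 3.20 in scramble, 3.07, 2.77, 3.09 and 3.23 with pre-miR-223, and 2.76, 3.12, 3.003 and 3.03 with anti-miR-223. The 12 values spanned less than 0.5 log2 units, and the groups overlapped throughout. The difference from scramble was -0.02 (95% CI -0.28 to 0.24) for the mimic, which became 0.06 when arrays were centred, and -0.08 (-0.34 to 0.18) for the inhibitor. Leaving out anti-miR-223 replicate 1 or scramble replicate 4 took the latter to -0.01 and -0.03. Leaving out anti-miR-223 replicate 2 or scramble replicate 3 took it to -0.13 and -0.14.

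Casp1, the protease at the centre of the pathway, was at 7.09, 7.33, 7.14 and 7.19 in scramble and at 6.86, 7.32, 6.997 and 7.04 with pre-miR-223. With anti-miR-223 it was at 6.98, 7.09, 7.22 and 8.12, the last being replicate 4. Of the 4 mimic arrays, 3 lay below all scramble arrays and replicate 2 did not. The array medians over all tested genes had the same pattern. Those of pre-miR-223 replicates 1, 3 and 4 (3.77, 3.76 and 3.70) lay below all scramble medians (3.82 to 3.93). That of replicate 2 (3.88) did not. The share of all tested genes with this pattern was not counted. The difference was -0.13 (95% CI -0.57 to 0.30) for the mimic, or -0.05 with arrays centred. Leaving out pre-miR-223 replicate 1 gave -0.07, scramble replicate 2 gave -0.08 and pre-miR-223 replicate 2 gave -0.22. For the inhibitor it was 0.17 (-0.27 to 0.60), which turned to -0.09 (-0.34 to 0.16) without anti-miR-223 replicate 4. The mimic against the inhibitor gave -0.30 (-0.73 to 0.14), or -0.04 without that array. None of these passed the test over all genes.

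Casp4, which encodes the lipopolysaccharide receptor caspase-11, had the largest difference of the 9 tested clusters for the mimic, smaller than that of the dimmer Gsdmd cluster described below. It was at 5.21, 5.53, 5.12 and 5.36 in scramble, 4.98, 5.32, 4.59 and 4.86 with pre-miR-223, and 4.92, 4.77, 5.08 and 6.36 with anti-miR-223. With each oligonucleotide, 3 of the 4 arrays lay below all scramble arrays, the exceptions being pre-miR-223 replicate 2 and anti-miR-223 replicate 4. For the mimic these are the arrays whose medians over all tested genes also lay below scramble, as given for Casp1. The inhibitor medians were 3.74, 3.76, 3.84 and 4.07 in replicates 1 to 4, beside 3.82 to 3.93 in scramble. The log2 difference from scramble was -0.37 (95% CI -0.97 to 0.23; adjusted p = 0.923 by limma) for the mimic and -0.03 (-0.62 to 0.57; adjusted p = 1.0 by limma) for the inhibitor. The former was -0.26 with cyclic loess.

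Without anti-miR-223 replicate 4, Casp4 differed by -0.37 (95% CI -0.67 to -0.07) for the mimic and by -0.39 (-0.71 to -0.06) for the inhibitor, with unadjusted p of 0.0198 and 0.0239 by limma. Over all genes the adjusted p were 0.521 and 0.712, so neither was called. Both comparisons use the same 4 scramble arrays. In these fits 9.38% and 6.69% of all tested genes had an unadjusted p under 0.05. The inhibitor's remaining 3 arrays did not overlap scramble for Casp4, with the inhibitor lower, which held for 4.53% of all tested genes. The mimic against the inhibitor gave -0.34 (-0.94 to 0.25), or 0.02 without that array.

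The stretches before the start sites of Casp1, Casp4 and Nlrp3 are shown, because Casp1 and Casp4 varied together over the arrays and Nlrp3 is the reported target. Over the 12 arrays, each centred on its median, the Pearson correlation of Casp1 and Casp4 was 0.846, and it was 0.447 over the 11 arrays without anti-miR-223 replicate 4. These are descriptions of arrays that share their normalisation. The sequences are from RefSeq (GRCm38.p6), plus strand, and cover the 250 bases before a listed start. They lie at chr9:5298267-5298516 for Casp1, chr9:5308599-5308848 for Casp4 and chr11:59541319-59541568 for Nlrp3. Capitals mark matches on either strand to the NF-kB consensus of 10 bases or to the PU.1 core GAGGAA.
Casp1: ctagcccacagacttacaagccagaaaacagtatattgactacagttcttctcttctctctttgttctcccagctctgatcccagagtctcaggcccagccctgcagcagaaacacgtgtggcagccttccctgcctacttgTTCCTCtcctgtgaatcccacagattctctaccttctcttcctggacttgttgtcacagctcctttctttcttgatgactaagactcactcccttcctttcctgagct
Casp4: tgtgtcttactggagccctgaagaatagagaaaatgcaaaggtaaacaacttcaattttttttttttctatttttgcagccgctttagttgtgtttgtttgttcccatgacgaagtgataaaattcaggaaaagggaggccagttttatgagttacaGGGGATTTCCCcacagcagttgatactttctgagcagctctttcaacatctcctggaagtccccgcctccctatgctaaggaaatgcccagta
Nlrp3: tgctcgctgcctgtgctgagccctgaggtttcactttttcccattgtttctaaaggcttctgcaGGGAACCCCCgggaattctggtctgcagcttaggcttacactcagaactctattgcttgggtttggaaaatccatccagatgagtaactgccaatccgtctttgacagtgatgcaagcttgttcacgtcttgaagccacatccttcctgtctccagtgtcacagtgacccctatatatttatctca
A match is a description of letters only. Of the 9 genes, 8 had a window in the table, with 10 windows in all, since Nlrp3 and Casp4 have 2 each. The counts that follow are per gene and the shares per window, so they are not directly comparable. The NF-kB consensus occurred in windows of 2 of them, Nlrp3 and Casp4, against 3.90% of all 32851 windows, and the 2 matches in Casp4 overlap each other. GAGGAA occurred for 4 of the 8 (Nlrp3, Aim2, Pycard and Casp1), against 23.3% of windows. In Nlrp3 it lies in the window of the other listed start, which is not shown. An interferon-response motif, read as GAAA, any 2 bases and GAAA, and the STAT-type motif TTCNNNGAA, present in 2.98% and 7.02% of windows, occurred in none of the 8. Both strands were searched for each motif.

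Gsdmd, whose product gasdermin D forms the membrane pore, had 2 clusters that ran in opposite directions. In the brighter one (17312280), which stands for the gene in the fit, scramble was at 5.93, 6.06, 5.82 and 5.73. There pre-miR-223 was at 5.67, 5.84, 5.39 and 5.43, and anti-miR-223 at 5.95, 5.65, 5.49 and 6.54. Of the 4 mimic arrays 3 lay below all scramble arrays, and the inhibitor arrays lay on both sides. Those 3 mimic arrays are again the ones whose medians over all tested genes lay below scramble. The difference was -0.30 (95% CI -0.71 to 0.11; adjusted p = 0.921 by limma) for the mimic, or -0.19 with cyclic loess, and 0.02 (-0.39 to 0.43) for the inhibitor. Without anti-miR-223 replicate 4 the mimic had -0.30 (-0.57 to -0.03), with an unadjusted p of 0.0330 and an adjusted p of 0.521 by limma, and the inhibitor had -0.19 (-0.48 to 0.11). The mimic against the inhibitor gave -0.32 (-0.73 to 0.08), or -0.11 without that array.

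The dimmer cluster (17318176) was at 3.78, 3.54, 4.30 and 3.91 in scramble, 4.85, 4.16, 4.63 and 4.58 with pre-miR-223, and 4.62, 4.71, 4.07 and 3.45 with anti-miR-223. Here the mimic arrays were high, with 3 of 4 above all scramble arrays. Put in place of the brighter cluster in the same fit, it gave 0.68 (95% CI 0.14 to 1.21) for the mimic, with an unadjusted p of 0.0172 and an adjusted p of 0.921 by limma. Its difference for the inhibitor was 0.33 (-0.20 to 0.87). Without anti-miR-223 replicate 4 these were 0.68 (0.29 to 1.06; adjusted p = 0.520 by limma) and 0.58 (0.17 to 0.996; adjusted p = 0.712 by limma). The direction of Gsdmd with the mimic thus depended on the cluster read, and the tables used give no position or strand of either cluster.

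Across the 12 arrays the Gsdmd clusters had a Pearson r of -0.688 (permutation p = 0.0131) and a Spearman rho of -0.629 (permutation p = 0.0320), from 100000 permutations each. This test was chosen once the clusters were known to disagree, and its permutations ignore the groups. Without the 2 arrays farthest from the median of the brighter cluster, anti-miR-223 replicate 4 and pre-miR-223 replicate 3, r was -0.484. Without anti-miR-223 replicate 4 alone it was -0.538. After centring each array it was -0.581, and 74 of 621 other same-gene pairs of clusters had an r at or below this value, with a median of 0.171 over the pairs.

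**Figure D2:**
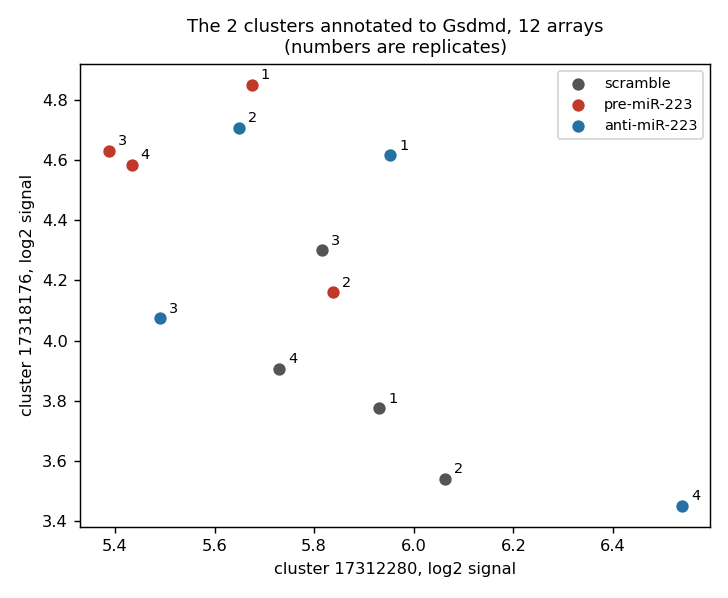
Log2 signal of the brighter Gsdmd cluster (x axis) against the dimmer one (y axis) on the 12 arrays, coloured by group and numbered by replicate. High values of one go with low values of the other, and anti-miR-223 replicate 4 lies at one end with 6.54 and 3.45.

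The cytokine genes did not pass the test in any comparison. Il1b, the interleukin-1β precursor gene, was dim in these cells: 2.32, 2.45, 2.45 and 2.48 in scramble, 2.22, 2.26, 2.55 and 2.49 with pre-miR-223, and 2.20, 2.45, 2.39 and 2.31 with anti-miR-223. All 12 values lay within 0.4 log2 units of each other and near the lowest level tested, where differences may be understated. The difference from scramble was -0.05 (95% CI -0.27 to 0.18) for the mimic, or 0.03 when arrays were centred, and -0.09 (-0.31 to 0.14) for the inhibitor. Il18, which unlike Il1b is expressed in many resting macrophages, was at 5.33, 5.84, 5.53 and 5.50 in scramble, 5.43, 5.71, 5.04 and 5.41 with pre-miR-223, and 5.40, 5.24, 5.62 and 5.52 with anti-miR-223. It differed by -0.15 (-0.47 to 0.16) for the mimic and by -0.11 (-0.42 to 0.21) for the inhibitor. Leaving out pre-miR-223 replicate 3, scramble replicate 2 or pre-miR-223 replicate 2 gave -0.03, -0.06 and -0.26 for the mimic, and centring the arrays gave -0.07. The inhibitor's was -0.01 without scramble replicate 2, -0.04 without anti-miR-223 replicate 2 and -0.18 without scramble replicate 1.

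Read as a group, none of the 9 genes passed the test in any comparison. Limma called 0 of 9 for pre-miR-223 against scramble, where it called 0.00% of all tested genes. At an unadjusted p under 0.05 there were 0 of 9 (4.87% of all genes), and an ordinary linear model also called 0. There were 2 of 9, Casp4 and Gsdmd, without anti-miR-223 replicate 4 (9.38% of all genes). Leaving out pre-miR-223 replicate 4 took the 711 genes behind the 4.87% to 314, and leaving out pre-miR-223 replicate 2 took them to 1510. The groups did not overlap for 0 of 9 (2.98% of all genes). In this comparison 7 of 9 genes were lower, against 65.2% of all tested genes, with a median difference of -0.12 beside -0.05 over all genes. With each array centred on its median, 5 of 9 were lower, and 6277 of the 14611 genes were. With Gsdmd read from its brighter cluster, a rise of 1.5-fold or more lay outside the intervals of all 9 genes and a fall of that size outside those of 7, all but Casp4 and Gsdmd, and a 2-fold change in either direction lay outside all 9. The interval of the dimmer Gsdmd cluster, 0.14 to 1.21, includes a rise of either size.

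For anti-miR-223 against scramble, limma and the ordinary linear model again called 0 of 9 (0.00% of all tested genes). At an unadjusted p under 0.05 there were 0 of 9 (2.01% of all genes). Here 5 of 9 genes were lower, against 52.5% of all genes, with a median of -0.03 beside -0.01. The groups did not overlap for 0 of 9 (1.55% of all genes). Without anti-miR-223 replicate 4, 1 of 9, Casp4, had an unadjusted p under 0.05 (6.69% of all genes), and 7 of 9 were lower against 63.6% of all genes, with a median of -0.10 beside -0.05. For the mimic against the inhibitor, 0 of 9 were called (0.00%) by either test, 0 of 9 had an unadjusted p under 0.05 (3.61%) and 0 of 9 did not overlap (1.67%). The differences ran from -0.34 for Casp4 to 0.06 for Pycard, and 7 of 9 were lower (62.8%). With arrays centred 5 of 9 were lower (41.0%). When anti-miR-223 replicate 4 was left out, 0 of 9 had an unadjusted p under 0.05 (4.89%) and 4 of 9 were lower (52.2%). The 3 comparisons share their arrays and are not independent. In all of them the median 95% confidence interval of a gene reached 0.29 to either side, and the number of arrays limits this precision.

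**Figure D3:**
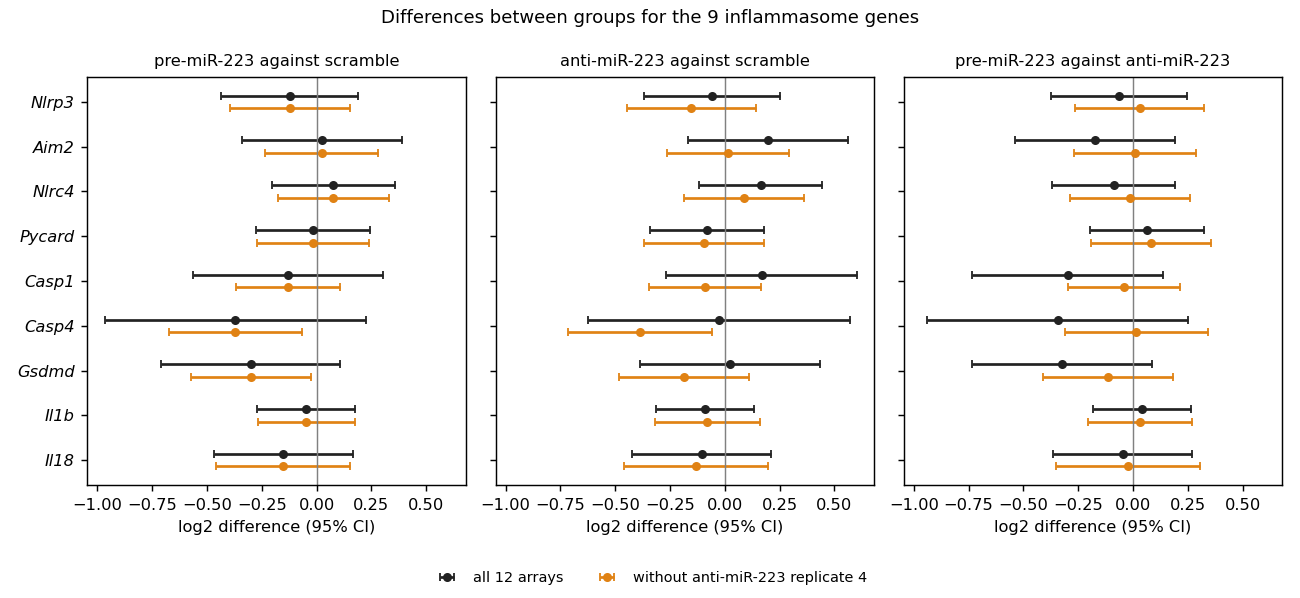
Log2 difference (x axis) with its 95% confidence interval for each of the 9 genes (y axis) in the 3 comparisons, in black with all 12 arrays and in orange without anti-miR-223 replicate 4. In black every interval includes 0; in orange those of Casp4 in both comparisons with scramble and of Gsdmd for the mimic lie below 0, and none passed the test over all genes.

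Single arrays stood out in the values of the 9 genes. Anti-miR-223 replicate 4 held the highest of the 12 values for 6 of the 9 genes, all 3 sensors, both caspases and Gsdmd, where it did so for 34.1% of all tested genes. Relative to its own 12-array mean, Casp4 was 1.18 higher there, Casp1 0.93, Gsdmd 0.75 and Aim2 0.66. Pycard, Il1b and Il18 did not take part, with -0.00, -0.07 and 0.06. Pre-miR-223 replicate 3 held the lowest value for Aim2, Casp4, Gsdmd and Il18, 4 of 9 genes, against 8.59% of all tested genes. In pre-miR-223 replicate 2, by contrast, 7 of the 9 genes were above their mean, all but Pycard and Il1b. The median deviation on that array was also above 0 over all tested genes, at 0.04, beside 0.14 over the 9 genes. The share of all tested genes above their mean there was not counted. Among the 36 pairs of the 9 genes, 7 had an r above 0.5 over the 12 centred arrays and 8 over the 11 arrays without anti-miR-223 replicate 4, with 2 pairs in common. Casp1 and Gsdmd, for example, went from 0.588 to -0.06. Il1b had an r below 0 with 7 of the 8 other genes and 0.781 with Pycard (0.739 over the 11 arrays), and these 2 genes are among the 3 dim ones. These correlations describe arrays that share their normalisation.

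**Figure D4:**
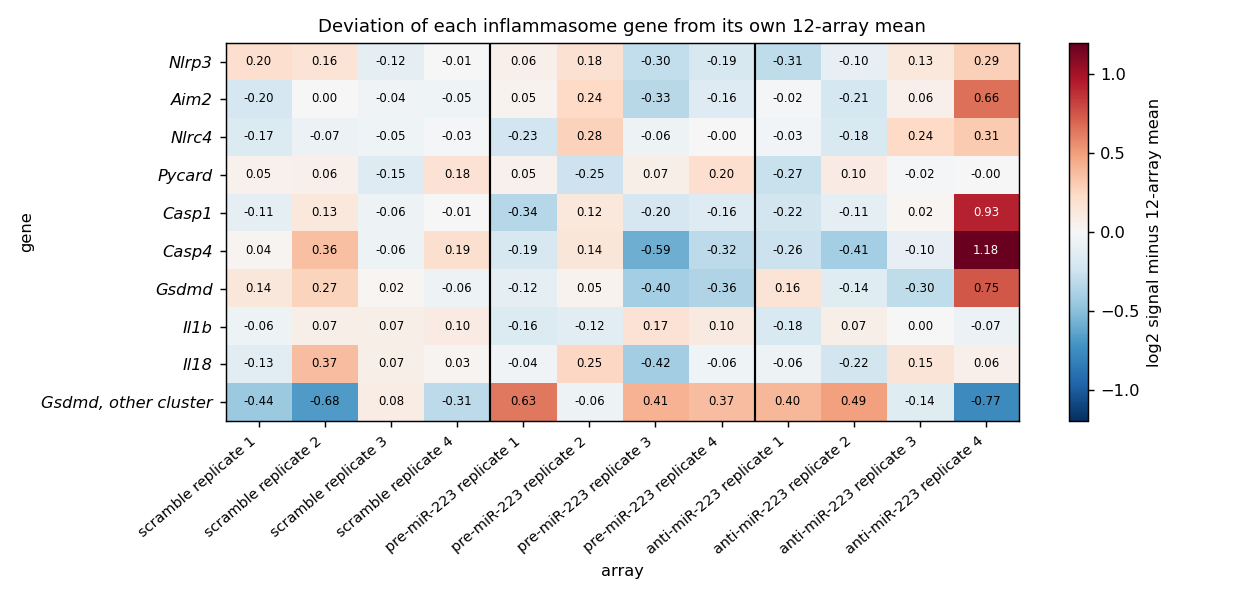
Log2 signal minus the gene's own 12-array mean (colour and printed value) for the 9 genes and the dimmer Gsdmd cluster (rows) on the 12 arrays (columns, with black lines between groups). The column of anti-miR-223 replicate 4 holds the largest deviations, up to 1.18 for Casp4, and the bottom row runs against the Gsdmd row.

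The genes whose pattern was most like that of Nlrp3 were found by Pearson correlation over the 12 arrays, each centred on its median, among 12922 tested genes that are neither members, predicted, olfactory nor small RNA genes. The nearest was Irak1, a kinase that signals below Toll-like and interleukin-1 receptors, with r = 0.874 (Spearman rho 0.846). Next came Vac14, a scaffold of the lipid kinase PIKfyve, with 0.868, Rere, a transcriptional corepressor, with 0.855, Ncaph2, a condensin II subunit, with 0.852, and Ubqln1, a ubiquitin-binding shuttle protein, with 0.851. Without anti-miR-223 replicate 4, r was 0.875, 0.874, 0.856, 0.851 and 0.874 for these genes in the same order. They were taken from the top of a long ranking of 12 points that share arrays and normalisation, so no test is given.

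Genes around the 9 members were read from 4 lists. Upstream, the list of priming by Toll-like receptors and NF-kB had 28 tested genes of 32. With pre-miR-223, 25 of 28 were lower than scramble, with a median of -0.13, against 65.2% lower and a median of -0.05 over all genes. With each array centred, 19 of 28 were lower, against 43.0% of all genes, and the medians were -0.05 and 0.03. Centring shifts all genes alike, so it cannot change the distance between these medians. Under repeated quantile normalisation 20 of 28 were lower, against 50.2% of all genes, with medians of -0.0253 and -0.0008. Cyclic loess gave 19 of 28, against 49.6%, with medians of -0.0248 and 0.0013. In both the list lay closer to all genes. The macrophage markers were mostly lower as well: 10 of 12 were lower with the mimic, with a median of -0.18, or 9 of 12 with a median of -0.10 when centred. Their differences with the mimic ran from -0.37 for Fcgr1, an antibody receptor, to 0.03 for Cd86, and Adgre1 (0.01) was also higher. With anti-miR-223, 5 of the 12 markers were lower (median 0.02), or 9 without replicate 4 (median -0.12). With the mimic limma called 0 of the 12 markers, and 1 had an unadjusted p under 0.05 (4.87% of all genes), or 4 without anti-miR-223 replicate 4 (9.38%). The part of the markers in the differences of the lists was not tested. None of the 28 passed the test by limma, and 1 had an unadjusted p under 0.05. This was Irf3, a transcription factor of the interferon response, at 4.64 ± 0.13 (SD, n = 4) in scramble and 4.34 ± 0.09 with pre-miR-223, a difference of -0.31 (95% CI -0.60 to -0.02). Irf3 spanned 4.55 to 4.83 in scramble and 4.26 to 4.47 with the mimic, so these groups did not overlap, as held for 2.98% of all tested genes. The 1 of 28 at an unadjusted p under 0.05 stands beside 4.87% of all genes, and became 2 of 28 beside 9.38% without anti-miR-223 replicate 4. For anti-miR-223 13 of 28 were lower (52.5% of all genes), or 20 without replicate 4 (63.6%), and none passed. At an unadjusted p under 0.05 there were 0 (2.01% of all genes), or 3 without replicate 4 (6.69% of all genes). Irf1, an interferon-induced transcription factor, had the smallest p for the inhibitor with all 12 arrays, with -0.16 (-0.39 to 0.08). For the mimic against the inhibitor 25 of 28 were lower, against 62.8% of all genes, and 3 had an unadjusted p under 0.05 (3.61% of all genes). With centring 18 of 28 were lower (41.0% of all genes). When anti-miR-223 replicate 4 was left out, 17 of 28 were lower (52.2% of all genes) and 1 had an unadjusted p under 0.05 (4.89% of all genes). With all 12 arrays Ticam2, an adaptor of the lipopolysaccharide receptor, had the smallest p in this comparison. It differed by -0.53 (-0.99 to -0.07), or -0.31 (-0.66 to 0.05) without anti-miR-223 replicate 4.

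Of the genes for assembly, regulation and execution, 30 of 38 were tested and none passed by limma in any comparison. At an unadjusted p under 0.05 there were 1, 0 and 1, beside 4.87%, 2.01% and 3.61% of all genes. Without anti-miR-223 replicate 4 there were 3, 3 and 2, beside 9.38%, 6.69% and 4.89%. With pre-miR-223, 26 of 30 were lower than scramble (65.2% of all genes), with a median of -0.13 beside -0.05 over all genes. With centring 19 of 30 were (43.0% of all genes), with a median of -0.05 beside 0.03, a distance that centring cannot change. Under repeated quantile normalisation 20 of 30 were lower (50.2% of all genes), with a median of -0.0357 beside -0.0008. Cyclic loess gave 20 of 30 (49.6%), with -0.0362 beside 0.0013. In both the list lay closer to all genes. The macrophage markers were mostly lower, as given above. Kcnk6, which encodes the potassium channel TWIK2 of the efflux step before NLRP3 activation, had the smallest p. It was at 5.86 ± 0.14 (SD, n = 4) in scramble, 5.45 ± 0.34 with pre-miR-223 and 5.85 ± 0.14 with anti-miR-223. Its values ran from 5.71 to 6.04 in scramble and from 4.997 to 5.72 with the mimic, which overlap narrowly. The difference was -0.41 (95% CI -0.73 to -0.08; adjusted p = 0.921 by limma) against scramble and -0.40 (-0.73 to -0.08; adjusted p = 0.946 by limma) against the inhibitor. With anti-miR-223, 17 of 30 were lower (52.5% of all genes), or 22 without replicate 4 (63.6%). The smallest p there belonged to Pstpip1, a partner of pyrin, with -0.17 (-0.41 to 0.06).

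Of the other sensors and receptors, 17 of 21 genes were tested. With pre-miR-223, 9 of 17 were lower than scramble (65.2% of all genes), with a median of -0.02. With centring 7 were lower (43.0% of all genes), with a median of 0.06. Nod2, a sensor of bacterial cell wall fragments, was at 3.16 ± 0.21 (SD, n = 4) in scramble and 2.85 ± 0.27 with pre-miR-223, a difference of -0.31 (95% CI -0.66 to 0.04). Ifi204, an interferon-induced DNA sensor of the family of Aim2, had the smallest p in both comparisons with the inhibitor. It was at 3.80 ± 0.27 in scramble, 3.89 ± 0.25 with pre-miR-223 and 3.36 ± 0.55 with anti-miR-223. The mimic against the inhibitor gave 0.53 (0.04 to 1.03), or 0.68 (0.21 to 1.14) without anti-miR-223 replicate 4, and the inhibitor against scramble gave -0.44 (-0.93 to 0.05), or -0.58 (-1.04 to -0.12). Limma called none of the 17 genes in any comparison. At an unadjusted p under 0.05 there were 0, 0 and 1 (4.87%, 2.01% and 3.61% of all genes). Without anti-miR-223 replicate 4 there were 2 in each (9.38%, 6.69% and 4.89%).

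Of the interleukin-1 family and its receptors, 9 of 15 genes were tested. With pre-miR-223 6 of 9 were lower (65.2% of all genes), with a median of 0.00, or 4 of 9 with centring (43.0% of all genes). The genes with the smallest p were all dim. Il1r1, the signalling receptor of interleukin-1, differed by 0.25 (95% CI -0.01 to 0.51) for the mimic against scramble. Sigirr, an inhibitory receptor, differed by 0.24 (-0.05 to 0.53) for the inhibitor, or 0.36 (0.11 to 0.61) without replicate 4. Il18bp, the soluble inhibitor of interleukin-18, differed by -0.31 (-0.56 to -0.05) for the mimic against the inhibitor, or -0.38 (-0.63 to -0.14) without that array. Limma called none of the 9 in any comparison. At an unadjusted p under 0.05 there were 0, 0 and 1 (4.87%, 2.01% and 3.61% of all genes). Without anti-miR-223 replicate 4 there were 2 in each (9.38%, 6.69% and 4.89%).

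**Figure D5:**
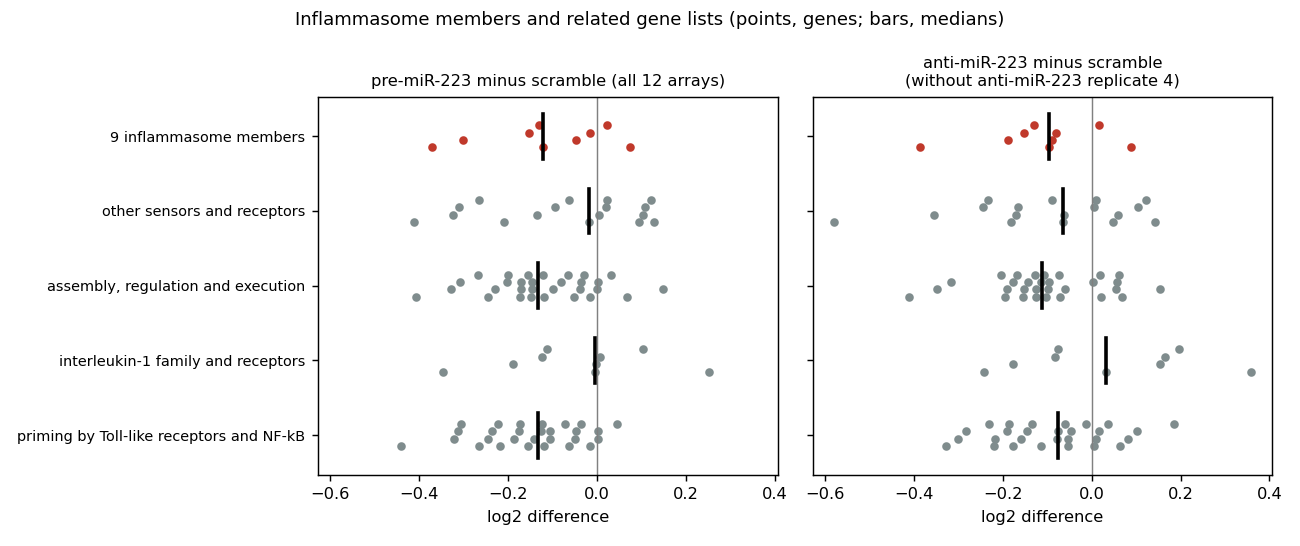
Log2 differences from scramble (x axis) of the tested genes (points) of the 9 members and the 4 related lists (y axis), with medians as bars, for the mimic with all arrays (left) and the inhibitor without replicate 4 (right). On the left the medians lie between -0.13 and 0.00, with the members at -0.12.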

How the data were processed

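Expression was measured on Affymetrix whole-transcript arrays in 12 samples. The authors deposited log2 signals of 41345 transcript clusters in 1 table. Per the submitters' processing notes, the tools were RMA, Affymetrix Expression Console and Partek, whose versions and roles are not stated. The base of the logarithm was taken as 2, as RMA gives, and the genome build is not given in the sources used here. RMA equalises the arrays, so a change in total RNA cannot be seen.

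Clusters with 1 gene symbol (23521; 1814 had several and 16010 none) gave 22180 genes. The cluster with the highest 12-array mean stood for each gene, and a gene was tested if that mean exceeded log2 2.01, the 40th percentile over the clusters (14611 genes).

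The test was limma's (lmFit and eBayes, version 3.58.1, R 4.3.3), from 1 model of the 12 arrays without covariates. Calls were made at a 2-sided Benjamini-Hochberg adjusted p under 0.05 over all tested genes. The procedure was tested on simulated data. The alternatives were median centring, repeated quantile normalisation, cyclic loess, no level filter, trend and robust options, an ordinary linear model, the replicate number as a block, the other Gsdmd cluster and each array left out. Array weights, and the other Gsdmd cluster without anti-miR-223 replicate 4, were added after the data were seen.

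The members and lists were chosen with earlier results of these data known. The genes named were the members, the gene with the smallest p of each list in each comparison, and the 5 genes most like Nlrp3. List genes with no single-symbol cluster or below the level filter were not tested.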

Additional observations from a re-analysis of the deposited data

How the results depend on the processing

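No gene was called by limma, nor by the ordinary linear model, in any of the 3 comparisons under any of the 23 fits. The lowest adjusted p of an inflammasome gene was 0.318 (Casp4, mimic against scramble, with array weights by limma). With all arrays kept, 15 of 219 differences of these genes turned their sign, and the cause was not tested. For the mimic against scramble these were Pycard (0.0629 with centring, 0.0257 with repeated quantile normalisation, 0.0175 with cyclic loess), Il1b (0.0322 with centring), Nlrc4 (-0.0056 with array weights) and the other Gsdmd cluster (0.68). For the inhibitor against scramble they were Casp1 (-0.0232) and Gsdmd (-0.11), both with array weights. For the mimic against the inhibitor they were Nlrp3 (0.0131 with centring, 0.0251 with repeated quantile normalisation, 0.0234 with cyclic loess), Il18 (0.0298, 0.0476 and 0.0418 in the same order) and the other Gsdmd cluster (0.34, or 0.0907 without anti-miR-223 replicate 4).

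With 1 array left out, 25 of 324 turned. For the mimic against scramble the ranges were -0.0738 to 0.12 for Aim2, -0.0191 to 0.15 for Nlrc4, -0.0787 to 0.0726 for Pycard and -0.11 to 0.0054 for Il1b. For the inhibitor they were -0.15 to 0.0449 for Nlrp3, -0.0894 to 0.29 for Casp1, -0.39 to 0.14 for Casp4 and -0.19 to 0.16 for Gsdmd. For the mimic against the inhibitor they were -0.17 to 0.0305 for Nlrp3, -0.28 to 0.0075 for Aim2, -0.0088 to 0.15 for Pycard, -0.52 to 0.0152 for Casp4, -0.0169 to 0.0939 for Il1b and -0.15 to 0.0704 for Il18.

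With the replicate number as a block, 0 genes were called in each comparison (547, 248 and 408 at an unadjusted p under 0.05), and Nlrp3 differed by -0.12, -0.06 and -0.06. The correlations of same-numbered arrays ran from -0.503 to 0.393, and the best correlated array carried the same number in 3 of 12 cases. These values include anti-miR-223 replicate 4, which stood apart, so they cannot show that pairing is absent. The numbers are not taken to pair the arrays, because the labels do not say that a number marks a shared passage or day. Nlrc4 and Il1b lie near the lowest level tested, which limits what can be seen of them.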
